A study of Mus musculus with 20 samples.

Results

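The genes described here encode the nuclear-encoded subunits of the mitochondrial respiratory chain and of the ATP synthase, measured in mouse bladders and metastases. Members were the genes whose single platform symbol begins with Nduf (but not Ndufaf), Uqcr, Cox4 to Cox8, or Atp5, without symbols that end in -ps and a number. This gave 81 of the 30139 genes measured. By the prefix of the symbol alone, 36 were counted as complex I, 8 as complex III, 18 as complex IV and 19 as ATP synthase. Ndufa4 and Ndufa4l2 are among the 36 by their names only, whatever complex their proteins belong to. A gene with several probe sets is represented by the one with the highest mean over all arrays, which applied to 3 members, Atp5d, Atp5g2 and Atp5l. The rule also keeps Atp5c1-ps and Atp5l2, which are pseudogenes, and Atp5sl, now called Dmac2, which encodes an assembly factor of complex I. Atp5l and Atp5l2, and Ndufb4b with its parent gene, are near-identical copies whose signals may not be separable. Probe sets shared by 2 symbols, 4 in all and among them those of Cox5b, Ndufb4, Ndufa11 and Atp5g2, were not used here.

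All 20 arrays hold RNA from FVB/N mice that are p107-/- (p107 is the Rbl1 gene product) and carry floxed tumour suppressor alleles, that of Rb1 among them. Normal bladders (labelled CT, 5 arrays) are bladders of these mice without a named inoculation. Tumour bladders (TUMOR, 7 arrays) were inoculated with an adenovirus that encodes Cre recombinase, so deletion is limited to cells the virus reached. Treated bladders (PALBO, 3 arrays) had the same virus, palbociclib (an inhibitor of the cyclin-dependent kinases that act on the retinoblastoma protein) at 150 mg/kg intraperitoneally every day for 28 days, and cisplatin (CDDP) at 6 mg/kg once a week. Metastases (M, 4 arrays) and a lone metastasis labelled PALBO-MET, here the palbo metastasis, come from such mice, and their site is not given. RNA came from a kit for fixed, paraffin-embedded tissue. Other engineered alleles were not analysed here.

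As background, complex I takes electrons from NADH and complex III takes them from ubiquinol and passes them to cytochrome c. Complex IV hands them to oxygen, and the proton gradient built on the way drives the ATP synthase. Most subunits are encoded in the nucleus and a few in mitochondrial DNA, and both sets are needed for a working chain. Nuclear subunit genes are known targets of the transcription factors NRF1, GABP (of the ETS family) and YY1. Several complex IV subunits exist as isoforms bound to heart and skeletal muscle, testis or other tissues.

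Values are deposited log2 levels, and a difference of 1 is a doubling of signal. No probe set's level is set against another's. Some arrays differ from the rest in a way the groups do not explain. On 8 arrays (normal bladders 4, 5 and 6, tumour bladders 3, 4 and 5, metastases 3 and 4), the SD of dim probe sets (mean 4.5 to 5.0) was 0.336 to 0.367. The deviations of 5317 bright probe sets (mean of at least 7) on these arrays correlated with no other array above 0.210. On the other 12 arrays the SD was 0.228 to 0.329, and each had a partner at 0.260 or more. The 0.329 was that of tumour bladder 1, over the limit of 0.30 set for the SD. It was not counted with the 8 because it had a partner, tumour bladder 2, at 0.654. The next highest SD was 0.269, on treated bladder 2. No treated bladder is among the 8. A further 83 very bright probe sets (mean of at least 12) were picked for values that were nearly identical within sets of arrays. Their values ranged by less than 0.05 within the 3 treated bladders and the palbo metastasis, and also within 7 other arrays. Probe sets of that brightness outside this limit were left out, and their number is not given here. Between these sets of arrays the constants of the 83 differed by 0.06 in the median and by up to 0.75. Tumour bladder 1 was kept out of the 7 and differed from them by -0.19 in the median. No member is among these 83 probe sets, and whether the arrays were processed in separate runs is not stated in the sources used here. The luminal urothelium marker list averaged 6.60 to 8.24 in normal, 5.03 to 9.72 in tumour and 7.14 to 8.09 in treated bladders, and 5.39 to 6.82 in the metastases. On the 8 arrays that stand apart it was 6.597 to 6.821, and the smooth muscle list was 6.655 to 6.885, with no clear difference between normal bladder, tumour bladder and metastasis. Metastases 3 and 4 thus read much like normal bladders 4, 5 and 6 in these markers, which bears on every group comparison below.

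In the tumour and treated groups, the subunit genes varied more between arrays than the group means differed, while the normal bladders lay close together. Normal bladders 4, 5 and 6 are arrays that stand apart, and such arrays had similar complex I means in every group. These were 6.503 to 6.569 on those normal bladders, 6.518 to 6.565 on tumour bladders 3, 4 and 5, and 6.569 and 6.593 on metastases 4 and 3. Normal bladders 1 and 2 read 6.754 and 6.684. The part of the array kind in the narrow normal spread was not tested. The mean level of the 36 complex I genes was 6.60 ± 0.11 in normal bladder (SD, n = 5), 6.55 ± 0.36 in tumour bladder (n = 7), 6.75 ± 0.36 in treated bladder (n = 3) and 6.67 ± 0.17 in metastasis (n = 4). Across the tumour bladders it ran from 6.00 on tumour bladder 1 to 7.07 on tumour bladder 7, which covers every other array. ATP synthase genes behaved the same way, with a mean of 6.94 ± 0.08 in normal, 6.75 ± 0.46 in tumour, 7.10 ± 0.40 in treated bladder and 6.97 ± 0.22 in metastasis. Their extremes were 6.07 on tumour bladder 1 and 7.41 on tumour bladder 7. In bulk tissue, fewer cells of a type and less RNA per cell cannot be told apart, and this holds for every value below.

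Arrays differed in most members at once. On treated bladder 1, 75 of 81 members lay above their own mean over the 20 arrays. Metastasis 1 followed with 70, tumour bladder 7 with 69, tumour bladder 6 with 66 and treated bladder 3 with 64. The count was 55 on normal bladder 1 and 51 on normal bladder 2. At the other end, 2 members were above their mean on the palbo metastasis, 10 on tumour bladder 1, 13 on treated bladder 2 and 14 on tumour bladder 2. The 8 arrays that stand apart lay in between, with 28 to 40. High and low arrays therefore occur in both the tumour and the treated group. The median level of all probe sets was 5.48 on tumour bladder 1, 5.39 on the palbo metastasis, 5.38 on treated bladder 2 and 5.35 on tumour bladder 2, where members were low. It was 5.11 on treated bladder 3, 5.12 on tumour bladder 6 and 5.13 on metastasis 1, and 5.25 and 5.27 on tumour bladder 7 and treated bladder 1, where members were high. The part of these array-wide shifts in the members' levels was not tested.

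This order was only partly that of other genes. The share above the own mean was 92.6% of members on treated bladder 1, against 45% of all genes and 48% of 7620 genes whose mean lies between the members' quartiles (5.85 to 7.30). On the palbo metastasis it was 2.47% of members, against 54.6% of all genes and 37.9% of genes of that level. On tumour bladder 1 it was 12.3% of members, 59.9% of all genes and 29.3% of genes of that level. On tumour bladder 6 it was 81.5% of members, 37.8% of all genes and 61.5% of genes of that level, so members were on the side of the genes of like level on both tumour bladders.

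**Figure D1:**
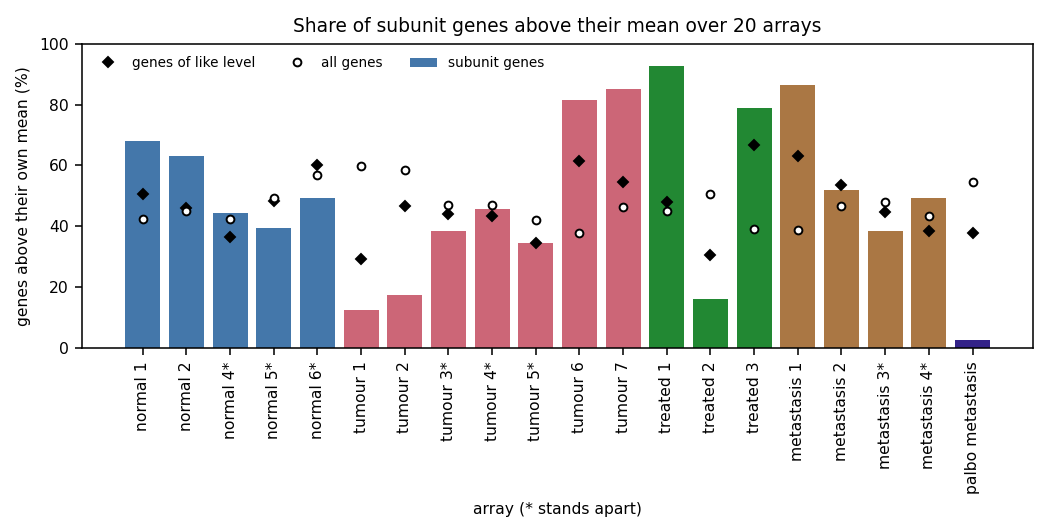
Share of the 81 subunit genes above their own mean over 20 arrays (bars, percent, coloured by group), with the same share for genes of like level (diamonds) and for all genes (circles), 1 bar per array; arrays that stand apart carry an asterisk. Bars reach 92.6% on treated bladder 1 and fall to 2.47% on the palbo metastasis, and the tumour group holds bars near both ends.

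Members differed in how widely they varied. The range over the 20 arrays had a median of 1.28 and ran from 0.42 to 4.19, with 19 members over 2 and 23 under 1. The widest was Atp5l, a membrane-sector subunit of the ATP synthase (subunit g), from 7.47 on tumour bladder 1 to 11.66 on normal bladder 6. Atp5md, a small membrane-sector subunit, ran from 5.68 on tumour bladder 1 to 9.86 on tumour bladder 7. Cox6b1, an intermembrane-space subunit of complex IV, ran from 8.15 to 11.35 on the same pair of arrays. The narrowest were Atp5sl, from 5.20 to 5.62, and Atp5j, a stalk subunit, from 5.23 to 5.67. Subunits of one complex therefore differed widely in spread, and Ndufs1, the large iron-sulphur subunit of complex I, stayed between 5.57 and 6.01.

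Tumour bladder 1 was the lowest array for 41 of 81 members, and the highest array was tumour bladder 7 for 26 and treated bladder 1 for 13. The SD of a member over the 8 arrays that stand apart had a median of 0.260, against 0.398 over the other 12. For all genes these medians were 0.252 and 0.265, and for genes of the members' middle level 0.211 and 0.334. In the dim range, with a mean under the 40th percentile of all probe sets (5.10), lay 4 members: Cox6a2, Ndufa4l2, Uqcr10 and Uqcrfs1. Uqcrfs1, the Rieske iron-sulphur protein of complex III, ran only from 4.32 to 5.02, so its probe set gave little room to see a change.

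**Figure D2:**
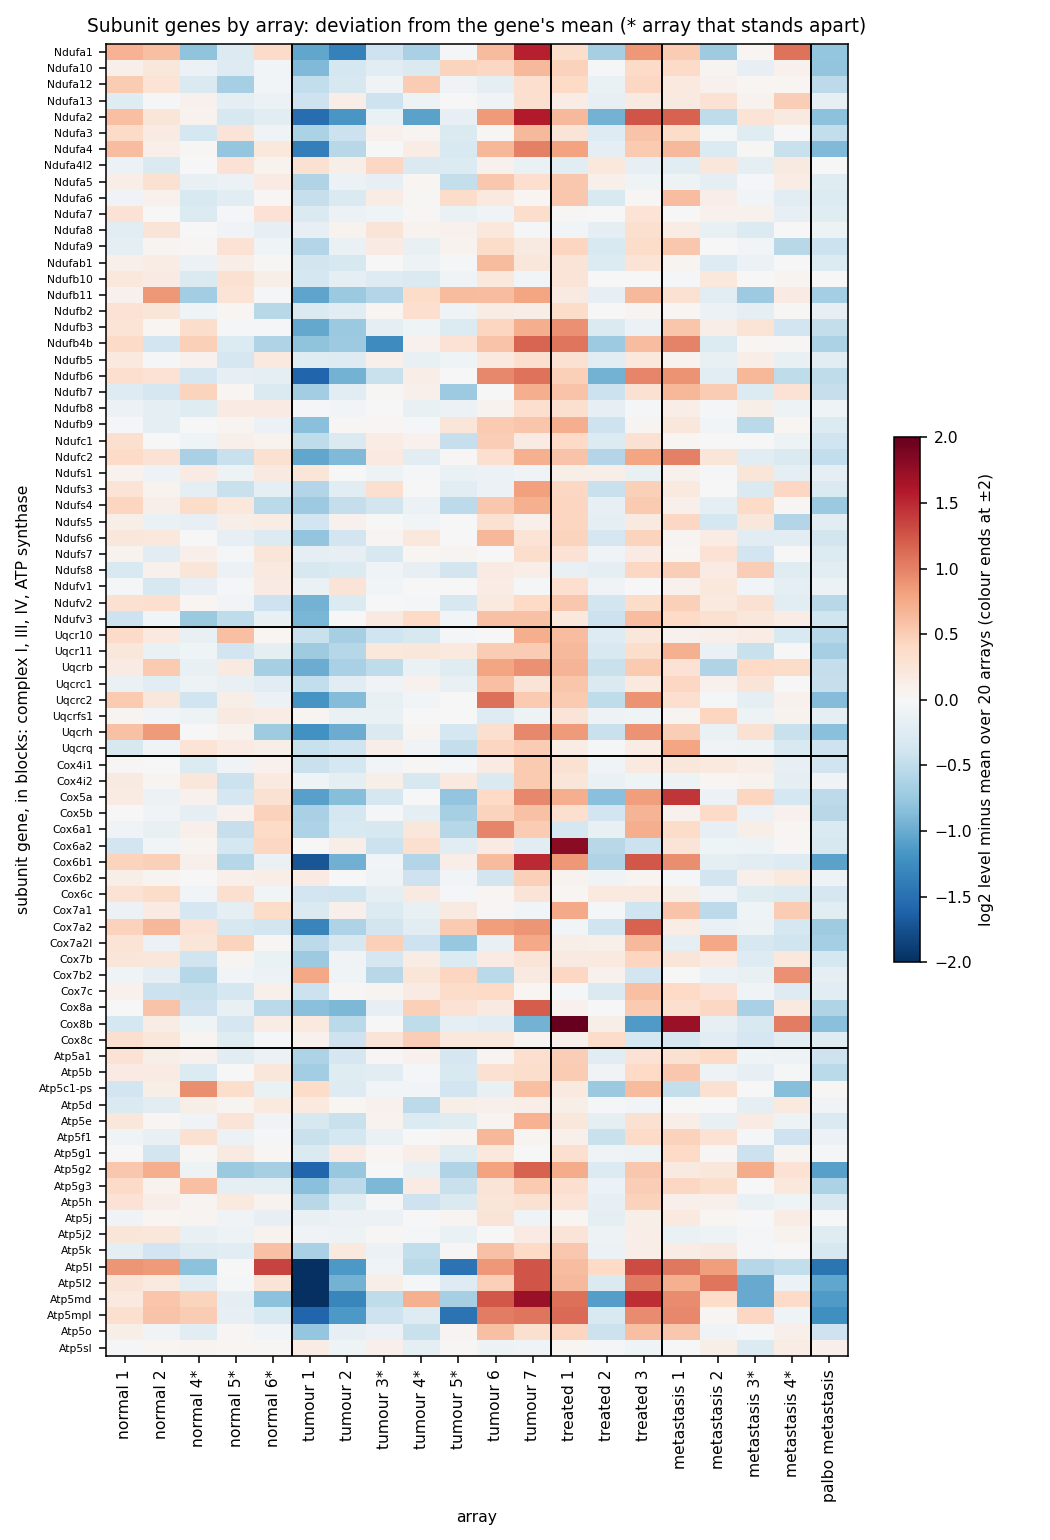
Heat map of all 81 subunit genes (vertical axis, in blocks for complex I, III, IV and the ATP synthase) by array (horizontal axis, grouped): colour is the log2 level minus the gene's mean over 20 arrays, with colours ending at ±2. Tumour bladder 1 and the palbo metastasis are blue in nearly all blocks, tumour bladder 7 and treated bladder 1 are red, and Cox6a2 and Cox8b stand out on treated bladder 1.

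A few promoters are shown, those of Atp5l, Atp5md and Cox6b1 for their wide range. Cox6a1 and Cox8b were added as a common and a muscle-bound subunit of complex IV, though they are not partners. RefSeq (GRCm38.p6) gives start-site windows for 65 of the 81 members, 70 windows in all, each from 250 bases before to 50 after the start. Motifs were searched on both strands: NRF1 as GCGCANGCG (which can match both strands at one place), ETS as CCGGAAG, YY1 as AANATGGC, MEF2 as CTANAAATA (which can overlap a TATA match), the muscle E-box CAGCTG and the TATA box TATAAA. The part upstream of the start is printed for Atp5l (chr9:44920743-44920992), Atp5md (chr19:47090648-47090897), Cox6b1 (chr7:30626115-30626364), Cox6a1 (chr5:115348959-115349208, which holds the most matches of these) and Cox8b (chr7:140900447-140900696, a muscle isoform described further on). All 5 lie on the minus strand and are written along the gene, with capitals for motif matches.
Atp5l: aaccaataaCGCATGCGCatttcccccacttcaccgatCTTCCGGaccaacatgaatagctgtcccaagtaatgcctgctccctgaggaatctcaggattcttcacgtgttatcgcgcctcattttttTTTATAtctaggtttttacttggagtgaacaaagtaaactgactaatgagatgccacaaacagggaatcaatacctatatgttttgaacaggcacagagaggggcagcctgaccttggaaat
Atp5md: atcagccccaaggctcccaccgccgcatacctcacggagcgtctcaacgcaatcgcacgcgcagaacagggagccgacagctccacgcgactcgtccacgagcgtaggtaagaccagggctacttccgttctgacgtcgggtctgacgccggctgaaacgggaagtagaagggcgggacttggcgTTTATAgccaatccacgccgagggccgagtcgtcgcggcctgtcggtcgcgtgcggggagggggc
Cox6b1: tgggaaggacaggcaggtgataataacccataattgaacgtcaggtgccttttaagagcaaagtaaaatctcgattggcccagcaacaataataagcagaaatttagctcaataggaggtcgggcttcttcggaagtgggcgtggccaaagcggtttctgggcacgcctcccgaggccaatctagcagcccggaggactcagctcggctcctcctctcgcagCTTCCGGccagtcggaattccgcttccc
Cox6a1: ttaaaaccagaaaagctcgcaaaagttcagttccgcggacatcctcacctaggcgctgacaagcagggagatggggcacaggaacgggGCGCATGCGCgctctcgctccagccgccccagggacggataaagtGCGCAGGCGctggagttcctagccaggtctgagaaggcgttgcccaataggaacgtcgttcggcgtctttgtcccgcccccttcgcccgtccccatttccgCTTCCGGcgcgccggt
Cox8b: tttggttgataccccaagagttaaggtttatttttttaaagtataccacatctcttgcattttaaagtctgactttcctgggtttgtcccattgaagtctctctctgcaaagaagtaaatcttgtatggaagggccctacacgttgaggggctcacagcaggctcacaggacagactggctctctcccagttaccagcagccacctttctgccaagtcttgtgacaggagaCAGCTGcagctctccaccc
Cox6a1 has NRF1 matches that begin 117 and 162 bases before the start and an ETS match 16 bases before it. Cox6b1 has an ETS match 28 bases before the start. Atp5l has an NRF1 match at 241, an ETS match at 212 and a TATA match at 122 bases before it. The part printed for Atp5md holds only a TATA match, 65 bases before its start, and its window also has an ETS match that is not wholly within the printed part. Cox8b holds the E-box, 19 bases before its start. Its whole window has none of the NRF1, ETS or YY1 letters, and has a TATA match that is not wholly within the printed part. Cox8a, the common partner of Cox8b, has no match in its 250 bases before the start. The whole window of Cox8a holds an ETS match but no NRF1 or YY1 letters.

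Over whole windows, NRF1 letters were in 22.9% of the 70 member windows and in 6.25% of all 32851 windows. ETS letters were in 21.4% against 8.86%, and YY1 letters in 27.1% against 6.05%. The muscle E-box was in 8.57% against 16.3%, MEF2 in 0 windows against 1.55%, and the TATA box in 12.9% against 13.6%. A match describes letters in a window and not binding.

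Tumour against normal bladder asks how the inoculated bladders differ from the control bladders. No member passed (limma, Benjamini-Hochberg over all genes; smallest adjusted p among members 0.998), and no gene of all passed, a background of 0%. The member means were lower in tumour for 56 of 81, against 46.9% of all genes and 53.4% of genes of like level. Their median difference was -0.08, beside 0.01 for all genes. By complex, 24 of 36 complex I genes were lower, 6 of 8 of complex III, 11 of 18 of complex IV and 15 of 19 of the ATP synthase, the last with a median of -0.14. Without tumour bladder 1, 44 members were higher in tumour and the median was 0.02. In the same comparison 10 of 10 smooth muscle genes (median -0.64) and 8 of 9 luminal urothelium genes (-0.33) had a lower mean in tumour, and 10 of 10 neutrophil genes a higher one (0.31), none past the test; their part in the members' values was not tested. The groups overlapped for every member, and of all genes 0.0829% were higher and 0.0829% lower without overlap.

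At an unadjusted p below 0.05 there were 1 member higher (2.39% of all genes) and 1 lower (1.86%). Ndufv3, an accessory subunit of the NADH-binding module of complex I, read 7.54, 7.91, 7.22, 7.45 and 7.82 on normal bladders 1, 2, 4, 5 and 6. In tumour bladder it ran from 7.04 over a median of 8.14 to 8.55. Tumour bladder 5 equalled the highest normal bladder at 7.91, 5 tumour bladders lay above it, and tumour bladder 1 lay below the lowest. The difference was 0.48 (SE 0.23, limma adjusted p = 0.998).

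Ndufb10, a membrane-arm subunit of complex I, read 6.70, 6.65, 6.21, 6.80 and 6.61 in normal bladder and ran from 6.13 over 6.30 to 6.70 in tumour bladder. The groups overlapped, since normal bladder 4 lay among the tumours and tumour bladder 6 among the normal bladders. The difference was -0.25 (SE 0.11, limma adjusted p = 0.998). Next in order were Cox7c, a small complex IV subunit, at 0.29 (SE 0.18), and Atp5h, the d subunit of the ATP synthase stalk, at -0.29 (SE 0.14).

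Treated against tumour bladder asks what differs after palbociclib with cisplatin. The mean of 75 of 81 members was higher in treated bladder, against 42.6% of all genes and 63.8% of genes of like level, and 6 were lower, against 57.4% of all genes. None passed (smallest limma adjusted p among members 1; background 0%). The median difference was 0.19, beside -0.02 for all genes. All 8 complex III genes were higher (median 0.27), as were 34 of 36 of complex I (0.18), 16 of 18 of complex IV (0.20) and 17 of 19 of the ATP synthase (0.28). No member reached an unadjusted p below 0.05 in either direction (0.182% of all genes higher, 0.159% lower), and no member's groups failed to overlap (0.073% and 0.0564%).

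Atp5l read 10.92, 10.71 and 11.61 in the treated bladders. In tumour bladder it ran from 7.47 over 9.77 to 11.56. Tumour bladders 6 and 7 lay among the treated bladders, and the other 5 lay below. Its difference was 1.34 (SE 0.69, limma adjusted p = 1). Atp5mpl, another small ATP synthase protein, read 9.48, 8.05 and 9.30 in treated bladder against 6.76 to 9.43 in tumour bladder (median 7.94), a difference of 0.99 (limma adjusted p = 1). Cox7b, a small complex IV subunit, read 8.86, 8.87 and 9.11 against 7.94 to 8.93 (median 8.61), a difference of 0.39 (SE 0.19, limma adjusted p = 1). The members lower in treated bladder differed little: Cox8c by -0.10 and Ndufa4l2 by -0.09, each with an SE of 0.17.

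The treated group itself was split. Members lay high on treated bladders 1 and 3 and low on treated bladder 2, and the 3 complex I means were 6.98, 6.34 and 6.94. Without treated bladder 2 the median difference from tumour was 0.40, without treated bladder 1 it was 0.09, without treated bladder 3 0.12 and without tumour bladder 1 0.12. Array weights were also tried, which count an array less the more its genes depart from the mean of its own group. No separate measure of array quality enters them. With these weights the median was 0.35, and still none passed. At an unadjusted p below 0.05 there were 41 members on the higher side (4.34% of all genes) and 0 on the lower side (3.99%). The smooth muscle marker list averaged 6.84, 7.49 and 8.27 in treated bladder and 5.64 to 9.59 in tumour bladder, and 10 of 10 of its genes had a higher mean in treated bladder. Of 9 macrophage genes, 8 had a lower one. The part of tissue makeup in the members' values was not tested.

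**Figure D3:**
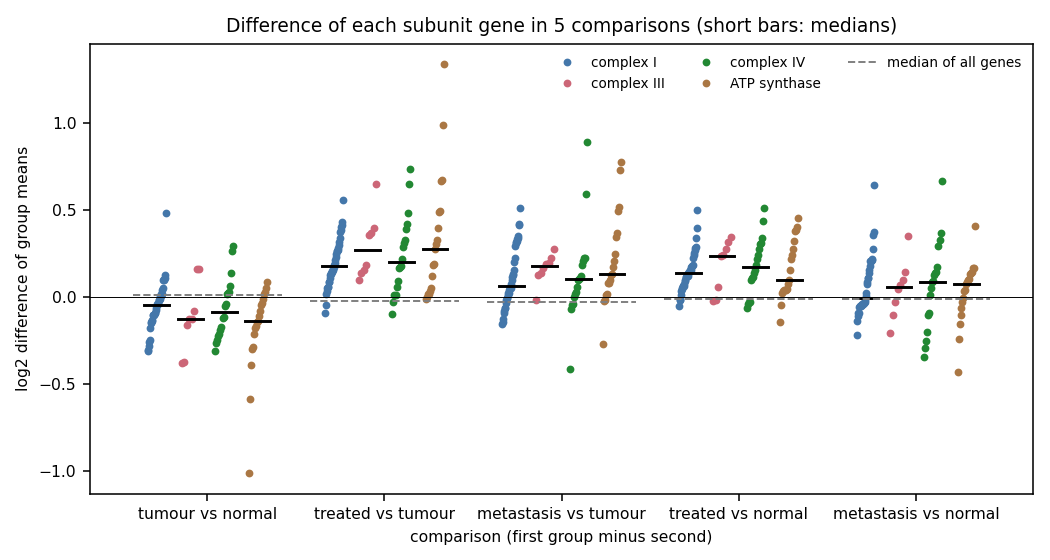
Log2 difference of group means for each subunit gene (points, coloured by complex) in 5 comparisons; short black bars are the medians by complex and dashed lines the median of all genes. In treated against tumour all 4 medians lie between 0.18 and 0.28, and no point in any comparison passed the test.

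Metastasis against tumour bladder showed 61 of 81 members with a higher mean (43.9% of all genes, 59.2% of genes of like level) and a median difference of 0.11, beside -0.03 for all genes. None passed (smallest limma adjusted p among members 0.841; background 0%). At an unadjusted p below 0.05, 2 members were higher (2.42% of all genes) and 1 lower (3.37%), which is near the background. No member's groups failed to overlap (0.123% of all genes higher, 0.382% lower). The median was 0.04 without metastasis 1 or without tumour bladder 1, and was 0.21 without tumour bladder 7. Counting the palbo metastasis as a metastasis gave 0.02. Tissue markers differed in the same comparison: 8 of 9 macrophage genes (median 0.72) and 4 of 5 liver genes (1.04) had a higher mean in metastasis, and 10 of 10 smooth muscle genes (-0.54) and 7 of 7 basal keratinocyte genes a lower one. None of these genes passed, and their part in the members' values was not tested. The macrophage list averaged 8.40 and 7.77 on metastases 1 and 2, but 6.63 and 6.59 on metastases 3 and 4, within the tumour range (5.86 to 7.09). The smooth muscle list averaged 5.64 and 5.79 on metastases 1 and 2, and 6.72 and 6.82 on metastases 3 and 4. The liver list averaged 8.06 on metastasis 2 and 5.38 to 5.80 on the other metastases.

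Ndufa13, also known as GRIM-19, a complex I subunit, read 6.41, 6.52, 6.31 and 6.73 in the metastases. In tumour bladder it ran from 5.81 over 6.16 to 6.56. The groups overlapped through tumour bladders 2 and 7. The difference was 0.34 (SE 0.14, limma adjusted p = 0.841). Ndufs8, an iron-sulphur subunit of complex I, read 5.92, 5.58, 5.92 and 5.18 against 5.06 to 5.59 (median 5.26), with metastases 2 and 4 among the tumours, and differed by 0.35 (SE 0.17, limma adjusted p = 0.857). Cox8c, an isoform known from testis, read 5.20, 5.32, 5.21 and 5.31 in the metastases against 5.13 to 6.04 (median 5.75) in tumour bladder. Only tumour bladder 2 lay as low, and the difference was -0.41 (SE 0.15, limma adjusted p = 0.841). Ndufa8, also of complex I, differed by -0.14 (SE 0.12).

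Treated against normal bladder gave 70 of 81 members with a higher mean (46.7% of all genes, 59.2% of genes of like level) and a median of 0.15, beside -0.01 for all genes. None passed (smallest limma adjusted p among members 1; background 0%), and none had an unadjusted p below 0.05 (0.209% of all genes higher, 0.149% lower) or groups that did not overlap (0.332% and 0.319%). Without the arrays that stand apart (here normal bladders 4, 5 and 6), 46 members were higher and the median was 0.02. Without treated bladder 1, 51 were higher (median 0.03), without treated bladder 3, 53 (0.05), and without treated bladder 2, 75 (0.31). With array weights 70 were higher with a median of 0.25, 23 members reached an unadjusted p below 0.05 on the higher side (5.44% of all genes) and 0 on the lower (4.54%), and none passed (smallest limma adjusted p among members 0.0635). All 12 fast skeletal muscle genes had a higher mean in treated bladder (median 0.63), and 8 of 9 macrophage genes a lower one. The muscle difference rests on treated bladder 1, with a list mean of 8.634. Treated bladders 2 and 3 read 5.165 and 5.145, below the 5 normal bladders (5.567 to 5.843). Ndufv3 differed by 0.50 (SE 0.28) and Uqcrc1, a core subunit of complex III, by 0.31 (SE 0.20). Uqcrc1 read 6.63, 5.78 and 6.27 in treated bladder, so treated bladder 2 lay below the 5 normal bladders (5.86 to 5.97) and the other treated bladders above them. On the lower side Atp5sl differed by -0.05 and Atp5c1-ps by -0.15.

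Metastasis against normal bladder showed no common direction: 47 of 81 members were higher (47.3% of all genes, 56.8% of genes of like level) and 34 lower (52.7% of all genes, 43.2% of genes of like level), with a median of 0.05 beside -0.01. In complex I, 18 were higher and 18 lower. None passed (smallest limma adjusted p among members 0.720; background 0%), and 2 members were higher at an unadjusted p below 0.05 (3.1% of all genes) and 0 lower (3.81%). The median was -0.04 without metastasis 1 and -0.06 with the palbo metastasis counted as a metastasis. Of the tissue markers, 10 of 10 smooth muscle genes (median -1.24) and 8 of 9 luminal urothelium genes (-1.08) had a lower mean in metastasis, and 8 of 9 macrophage genes a higher one (1.01). Metastases 3 and 4 differed little from normal bladders 4, 5 and 6 in these lists. Their smooth muscle means were 6.716 and 6.819, against 6.786 to 6.885. Their macrophage means were 6.632 and 6.594, against 6.604 to 6.845.

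In this comparison 2 members had groups that did not overlap, both higher in metastasis, which is 2.47% of members against 1.07% of all genes. No member was lower without overlap (1.79% of all genes). Ndufv3 read 8.36, 8.27, 8.18 and 8.12 in the metastases, above all normal bladders, a difference of 0.64 (SE 0.26, limma adjusted p = 0.720). Uqcrc1 read 6.49, 6.17, 6.33 and 6.08, against 5.86 to 5.97. Ndufa13 differed by 0.36 (SE 0.15, limma adjusted p = 0.720), with normal bladder 4 and metastasis 3 both at 6.31. Cox8c differed by -0.35 (SE 0.17) and Cox6c, a small complex IV subunit, by -0.30 (SE 0.15).

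The palbo metastasis had low levels of most members. It lay below all 4 metastases for 55 of 81 members, against 17.1% of all genes and 31.9% of genes of like level, and above all 4 for 0 (25.3% of all genes). It lay below all 3 treated bladders for 53 members (21.2% of all genes, 34.3% of like level) and above them for 1 (30.8%). With these bladders it shares the near-constant values of the very bright probe sets that were picked for that likeness. Its median difference from the metastasis mean was -0.44, beside 0.05 for all genes. By complex its means were 6.22 for complex I, 5.51 for complex III, 6.29 for complex IV and 6.39 for the ATP synthase, against metastasis means of 6.67, 6.15, 6.78 and 6.97. It was the lowest of all 20 arrays for only 2 members (2.51% of all genes), since tumour bladder 1 was usually lower.

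With a single array there is no replicate and no test. Its bladder markers were the lowest of the 20 arrays, with a luminal urothelium list mean of 4.71 and a smooth muscle list mean of 5.07. Its macrophage list mean was 8.19 and its neutrophil list mean 7.36. Metastasis 1, where 70 members were high, had a macrophage list mean of 8.40 and low urothelium (5.39) and smooth muscle (5.64) means as well. The part of tissue makeup in these levels was not tested. Liver markers averaged 8.06 on metastasis 2 and 4.84 to 5.80 on the other arrays.

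**Figure D4:**
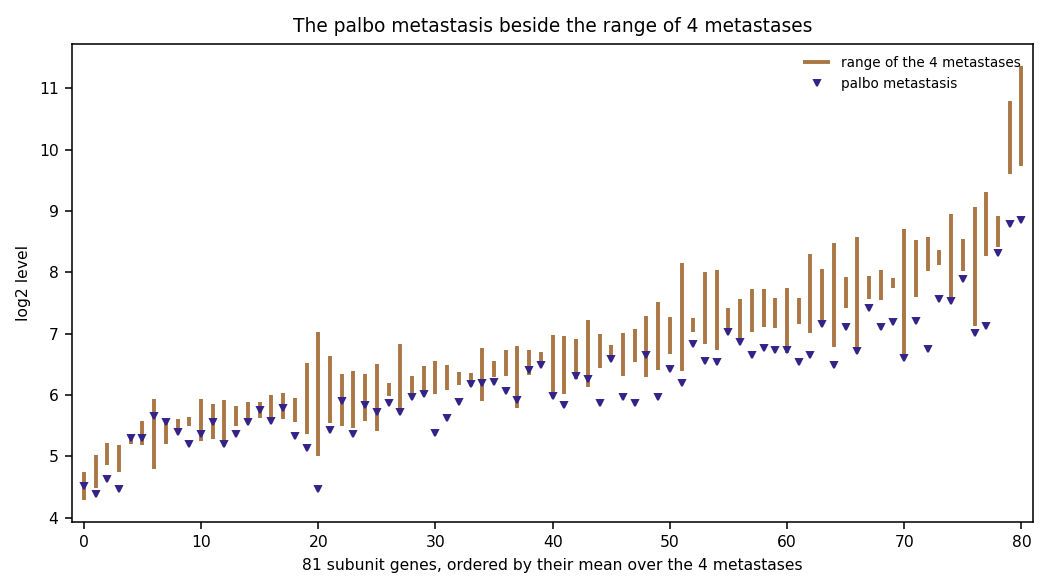
Log2 level of each of the 81 subunit genes on the palbo metastasis (triangles) beside the range of the 4 metastases (bars), ordered by the metastasis mean. Triangles lie below the bar for 55 genes and above it for 0.

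Isoforms bound to particular tissues were read beside their common partners. Cox6a2, the heart and skeletal muscle form of a complex IV subunit, read 6.76 on treated bladder 1 and 4.40 to 5.37 on all other arrays. Cox8b, another muscle form that is also found in brown fat, read 7.58 on treated bladder 1, 7.03 on metastasis 1 and 6.33 on metastasis 4, and 4.17 to 5.51 elsewhere. Cox7a1, the muscle form of another subunit, read 6.70, 6.50 and 6.45 on the same 3 arrays and 5.41 to 6.30 elsewhere. Their common partners did not peak on treated bladder 1: Cox6a1 was 7.83 there (7.56 to 9.15 over all arrays), Cox8a 7.43 (6.44 to 8.54) and Cox7a2 7.38 (6.13 to 8.63).

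The fast skeletal muscle list of 12 genes averaged 8.63 on treated bladder 1 and 5.14 to 6.62 on the other arrays. Its Myh4, a fast myosin heavy chain, read 9.65 there, and Tnnt3, a fast troponin, 10.01. On metastases 1 and 4, where Cox8b was also high, the muscle list averaged 5.25 and 5.77. The adipocyte list averaged 6.53 on metastasis 1 and 5.93 on metastasis 4, against 5.35 to 6.47 on all other arrays, and Ucp1, the brown fat uncoupling protein, was highest on metastasis 1 (5.38), followed by treated bladder 2 (5.37), and read 4.55 on metastasis 4, with 4.23 as its lowest level. The part of muscle or fat tissue in these isoform values was not tested.

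**Figure D5:**
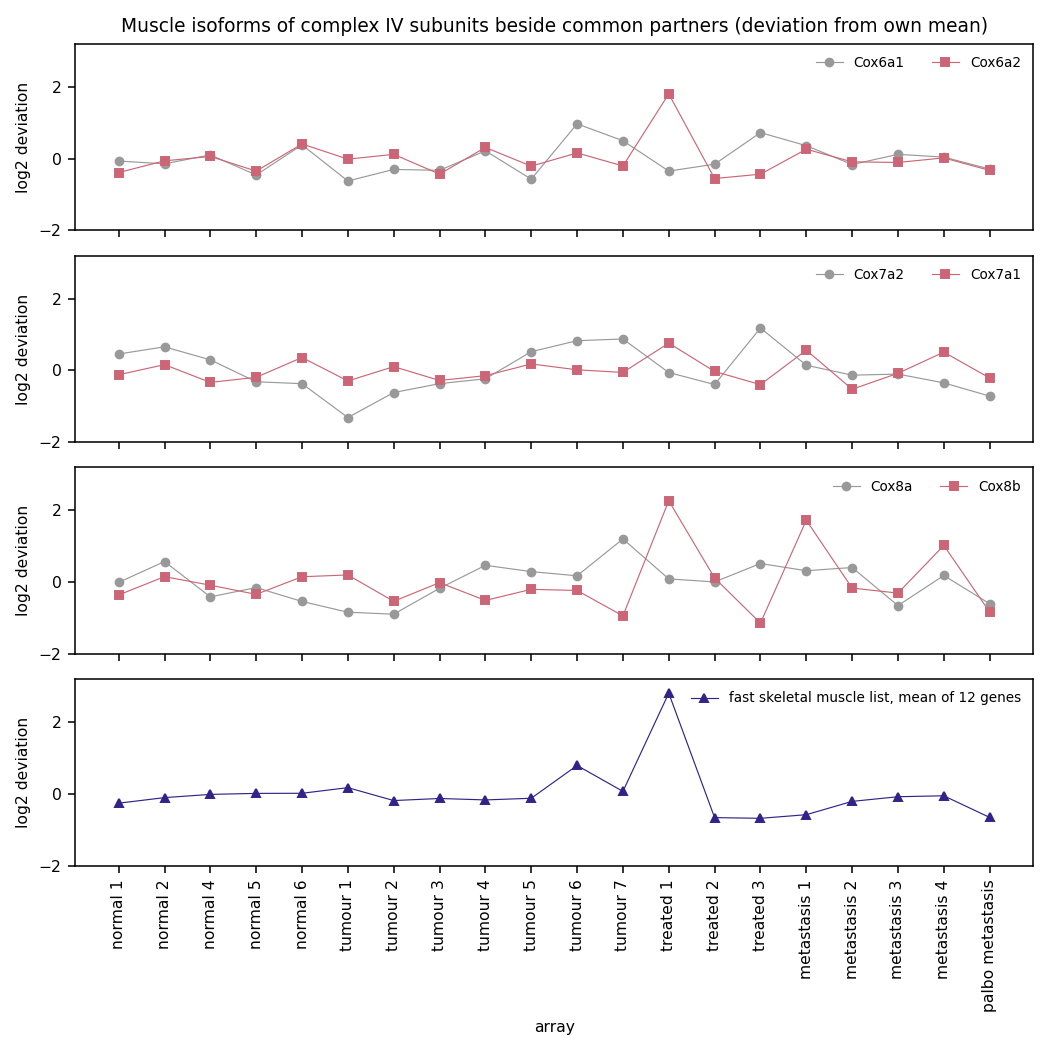
Log2 deviation from the mean over 20 arrays for 3 muscle isoforms of complex IV subunits (squares) and their common partners (circles), and for the mean of 12 fast skeletal muscle genes (triangles), by array. All 3 isoforms and the muscle list peak on treated bladder 1, and Cox8b is high on metastases 1 and 4 without the muscle list.

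As group differences these isoforms did not pass. Cox8b differed by 0.73 between treated and tumour bladder (limma adjusted p = 1) and by 0.89 between metastasis and tumour bladder (limma adjusted p = 0.861). Cox6a2 differed by 0.31 between treated and tumour bladder, on the strength of treated bladder 1. Other alternative forms were less uneven across arrays, apart from Cox7b2. Cox4i2, a form known from lung and from low oxygen, ran from 5.38 to 6.34 beside 5.28 to 6.26 for the common Cox4i1, and Cox6b2, a testis form, from 5.25 to 6.13. Cox7b2, also known from testis, read 6.69 on tumour bladder 1 and 6.83 on metastasis 4, and 5.35 to 6.35 elsewhere. Testis markers averaged 5.11 and 5.07 on those arrays and 4.70 to 5.15 on the others. Ndufa4l2, a form known to respond to low oxygen, stayed between 4.24 and 4.94, while its partner Ndufa4 ran from 5.49 to 7.87.

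Genes that work with the subunits were counted from lists, and 0 of their genes passed in any of the 5 comparisons. In treated against tumour bladder, 42.6% of all genes and 63.8% of genes at the subunits' level had a higher mean. Of 38 measured assembly factors, 24 had a higher mean in treated than in tumour bladder (median difference 0.01), a share near that of genes at the subunits' level. Among the 38 is Dmac2, which is the member Atp5sl. The mean of the assembly factor list moved only from 5.65 to 5.87 over the 20 arrays. Of 29 mitochondrial ribosome genes, 22 were higher (0.03), and of 14 regulators such as Nrf1, Gabpa and Tfam, 9 (0.03). Citric acid cycle genes were nearer to the subunits, with 14 of 15 higher (0.18), as were 9 of 10 genes of ATP/ADP exchange and phosphate transport (0.15) and 12 of 12 cytoplasmic ribosomal protein genes (0.22). Complex II and the electron carriers had 9 of 12 higher (0.08). Against normal bladder, metastases had 13 of 15 glycolysis genes higher (47.3% of all genes, 56.8% at the subunits' level), with a median of 0.25, beside 0.05 for the subunits. Tumour bladders had 13 of 15 higher (53.1% of all genes, 46.6% at the subunits' level) with a median of 0.12, beside -0.08. Treated bladders had 14 of 15 higher (46.7% of all genes, 59.2% at the subunits' level) with a median of 0.21, beside 0.15.

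Subunits encoded in mitochondrial DNA were measured for 5 of 13 genes. Their list mean was 12.31 ± 0.76 in normal (SD, n = 5), 11.85 ± 0.91 in tumour (n = 7), 12.94 ± 0.44 in treated bladder (n = 3) and 11.75 ± 0.99 in metastasis (n = 4). All 5 had a higher mean in treated than in tumour bladder (median 1.10) and a lower one in metastasis than in normal bladder (median -0.61), and 0 passed. COX1 is one of the brightest probe sets and read 15.75 to 15.77 on the treated bladders and the palbo metastasis, with 15.42 to 15.44 on 7 other arrays, so its level is close to a constant there. On treated bladder 2, where the nuclear subunits were low, the mitochondrially encoded mean was 13.23, and on metastasis 1, where they were high, it was 11.86.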

How the data were processed

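Expression was measured on 20 Affymetrix whole-transcript arrays of mouse bladder and metastasis RNA. The deposited values are log2 levels that the authors made with RMA in Affymetrix Expression Console, per the submitters' processing notes, without versions. Base 2 was assumed, as RMA gives it; the file does not state it. RMA usually sets all arrays to one distribution, but the deposited array medians ran from 5.11 to 5.48, and values from 2.16 to 22.0. For arrays, their number limits the precision.

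Of 65956 probe sets, 30604 with exactly 1 symbol in the platform annotation were used, after 819 symbols were updated, and gave 30139 genes. A linear model with 5 groups was fitted in limma 3.58.1 under R 4.3.3, with 2-sided tests, Benjamini-Hochberg adjusted p-values over all genes and a threshold of 0.05. The procedure was tested on simulated data. The labels do not say that arrays came from separate animals, so p-values measure only the spread between these samples. For samples of 2 groups with the same replicate number, the deviations from their group means over all genes correlated at -0.51 to 0.33, mostly below 0. The numbers were therefore not taken as pairs. Named members are, per comparison and direction, the 2 of lowest p, and the tissue isoforms with their partners. The members with the highest and lowest mean of each complex were also planned. Of these, the levels of Ndufb6 and Uqcrh (highest in complexes I and III) and Atp5d (lowest of the ATP synthase) are not described. Atp5mpl, Atp5md, Atp5j and Ndufs1 were named after their values were seen, as were Myh4, Tnnt3, Ucp1 and the set of bright probe sets. List levels are means over measured genes. Genes of like level, the mitochondrial symbols and the 8 arrays that stand apart were also set with values known. Members and lists were chosen with earlier results of these data known. Alternatives covered the normalization, a filter on dim genes, the variance prior, array weights, the arrays in the fit, the replicate block and each array left out in turn.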

Additional observations from a re-analysis of the deposited data

Results flagged for a closer look

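In 78 groups of 4 to 7 arrays, over 26 items (complex means and named members), 6 held an array far from the others of its group for the size of the group's range. Chance flags about 1 in 20 such groups. The complex I mean of metastasis 1 was 6.93, and the other metastases lay at 6.57 to 6.59. Cox4i2 read 5.38 on normal bladder 5, against 5.87 to 6.05 on the other normal bladders. Cox7b read 8.41 on metastasis 3, against 8.84 to 8.91. Cox7b2 read 5.35 on normal bladder 4, against 5.74 to 5.86, and 6.83 on metastasis 4, against 5.77 to 5.93. Ndufv3 read 7.04 on tumour bladder 1, against 7.91 to 8.55 on the other tumour bladders. Of these arrays, normal bladders 4 and 5 and metastases 3 and 4 are among the 8 that stand apart.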

How the results depend on the processing

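No member passed in any comparison under any alternative that was run. The median difference of the members with each array left out in turn ran from -0.17 to 0.02 for tumour against normal, 0.09 to 0.40 for treated against tumour, 0.04 to 0.21 for metastasis against tumour, 0.03 to 0.31 for treated against normal and -0.04 to 0.11 for metastasis against normal. With the replicate block the medians were -0.15, 0.31, 0.24, 0.20 and 0.10 in that order, with 0 members past the threshold. Without the 8 arrays that stand apart they were -0.17, 0.20, 0.22, 0.02 and 0.05, with those arrays as a term -0.10, 0.15, 0.12, 0.06 and 0.04, with array weights -0.11, 0.35, 0.10, 0.25 and -0.0047, with arrays centred on their medians -0.09, 0.24, 0.16, 0.18 and 0.09, and after renewed quantile normalization -0.10, 0.18, 0.10, 0.05 and 0.01. Within the 8 arrays alone they were -0.06 for tumour against normal, 0.04 for metastasis against tumour and -0.02 for metastasis against normal. Members higher in tumour than normal bladder numbered 44 without tumour bladder 1, against 25, and members higher in treated than normal bladder 46 without the 8 arrays, against 70. Some small differences changed sign. Cox8c, treated against tumour, was 0.047 without the 8 arrays and -0.26 to 0.10 with an array left out. Atp5sl, treated against normal, was 0.0084 with array weights. Atp5c1-ps, treated against normal, was 0.066 with array weights, 0.16 without the 8 arrays and -0.45 to 0.24 with an array left out, above 0 without normal bladder 4 (0.041) or treated bladder 2. The cause was not tested. Dim signal limits Cox6a2, Ndufa4l2, Uqcr10 and Uqcrfs1.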
